A study of Mus musculus with 2 samples.

Results

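The 8 genes described here are encoded by the mouse mitochondrial genome. They are the rRNA genes mt-Rnr1 and mt-Rnr2, the complex III gene mt-Cytb, the complex IV genes mt-Co1, mt-Co2 and mt-Co3, and the complex V genes mt-Atp8 and mt-Atp6. They were taken by symbol from the gene rows of the count tables, and all 8 were found among 55357 rows. The values come from single-cell RNA-seq of dissociated small intestinal epithelium, with 1 droplet library of 3′ ends for each of 2 genotypes. The Adipfl/fl mice carried a floxed adiponectin gene without Cre, and the Adipfl/flpVilli-CreT mice carried the same floxed gene with a Cre under the villin promoter. That promoter is active in intestinal epithelial cells, so other cell types in the libraries were not targeted. Adiponectin is a secreted hormone best known from fat tissue. Young adult male littermates were pooled within each genotype, so the spread between animals was not measured, no test between genotypes was possible, and a difference between the libraries cannot be told apart from a difference between genotypes.

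Mitochondrial DNA is a small circle that is copied into long RNAs, which are cut, mostly at tRNAs, into rRNAs and mRNAs. No tRNA lies between the overlapping genes mt-Atp8 and mt-Atp6. The rRNAs of mt-Rnr1 (12S) and mt-Rnr2 (16S) form the small and the large subunit of the mitochondrial ribosome, which translates the mitochondrial mRNAs alone. Cytochrome b (mt-Cytb) is the mitochondrially encoded subunit of complex III. The products of mt-Co1, mt-Co2 and mt-Co3 form the core of cytochrome c oxidase, complex IV, and mt-Atp6 and mt-Atp8 encode membrane subunits of the ATP synthase, complex V. The mitochondrial mRNAs carry poly(A) tails, and the rRNAs carry short stretches of A. In the intestine, cells born in crypts move up the villus as they mature and are shed at its tip. A high share of mitochondrial transcripts is widely used as a sign of a damaged cell, which is why the study set a limit on it.

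All 8 genes lie on the plus strand of the mitochondrial chromosome (build GRCm38). mt-Rnr1 (ENSMUSG00000064337) spans chrM:70-1024 and mt-Rnr2 (ENSMUSG00000064339) spans chrM:1094-2675. mt-Co1 (ENSMUSG00000064351) spans chrM:5328-6872, mt-Co2 (ENSMUSG00000064354) chrM:7013-7696 and mt-Co3 (ENSMUSG00000064358) chrM:8607-9390. mt-Atp8 (ENSMUSG00000064356) spans chrM:7766-7969, mt-Atp6 (ENSMUSG00000064357) chrM:7927-8607 and mt-Cytb (ENSMUSG00000064370) chrM:14145-15288. The 2 ATP synthase genes share 43 bases, which are in capitals in the whole mt-Atp8 sequence below because these genes differed in opposite directions between the libraries.
mt-Atp8: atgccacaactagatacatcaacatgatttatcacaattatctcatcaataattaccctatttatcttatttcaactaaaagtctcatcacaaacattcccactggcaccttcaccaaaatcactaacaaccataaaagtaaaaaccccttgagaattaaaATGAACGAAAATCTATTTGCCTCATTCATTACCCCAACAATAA

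The kit primes cDNA on runs of A, so the longest run of A inside each of the 4 genes with the most UMIs is shown next, in capitals, with up to 30 bases on each side. It is 7 bases long in mt-Rnr2 (chrM:1458-1524) and in mt-Co1 (chrM:6086-6152). It is 5 bases long in mt-Rnr1 (chrM:675-739) and in mt-Cytb (chrM:14145-14193), and mt-Rnr2 holds 4 runs of 6 or more. Whether reads began at these runs was not tested.
mt-Rnr2: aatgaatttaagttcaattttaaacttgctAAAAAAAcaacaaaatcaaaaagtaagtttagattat
mt-Co1: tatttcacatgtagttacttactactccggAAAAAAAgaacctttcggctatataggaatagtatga
mt-Rnr1: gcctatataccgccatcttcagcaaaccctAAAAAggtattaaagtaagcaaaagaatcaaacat
mt-Cytb: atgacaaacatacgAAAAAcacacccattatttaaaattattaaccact

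Some members have copies in the nuclear genome that the gene table lists as rows of their own. mt-Atp6 is identical over 678 of its 681 bases to Gm10925 (chr1:24613974-24614651), mt-Co2 over 681 of 684 to Gm28661 (chr1:24614885-24615565), and mt-Co3 over 783 of 784 to Gm28437 (chr1:24613189-24613971). A read from such a stretch maps equally well to both rows, so the counts of mt-Co2, mt-Co3 and mt-Atp6 are uncertain and may miss reads. mt-Co1 matches Gm29216 (chr1:24615706-24616197, minus strand) over its last 483 bases with 1 mismatch, A1066T, counted from 1 at the first base of mt-Co1. Beyond that base mt-Co1 and the copy are identical to the end, so mt-Co1 may miss reads as well. The bases that mt-Atp8 shares with mt-Atp6 lie in Gm10925 too. No annotated transcript of a nuclear copy matched mt-Atp8 over 100 bases or more. However, the 233 bases between Gm10925 and Gm28661 could not be read, where 230 lie between mt-Co2 and mt-Atp6. So mt-Atp8 may miss reads too. The 60 bases from near the start of the match of mt-Co1 to Gm29216, with the mismatch in capitals, show how close that copy is.
mt-Co1, chrM:6390-6449: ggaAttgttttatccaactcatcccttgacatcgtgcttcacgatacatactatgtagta
Gm29216, chr1:24616129-24616188: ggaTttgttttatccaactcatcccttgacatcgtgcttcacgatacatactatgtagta

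The files hold 9791 barcodes of the Adipfl/fl library and 11838 of the Adipfl/flpVilli-CreT library. With the limits that the study states, more than 500 detected genes and under 25% of UMIs (counted molecules) from mitochondrial genes, 3069 and 5555 barcodes were kept here, which is fewer than the study carried forward. Barcodes over 500 genes at or above 25% (4670 and 4263) are called removed, and those with 500 genes or fewer (2052 and 2020) are described apart. Median UMIs per barcode were 4838 and 4749 in kept barcodes, 2705 and 2554 in removed ones, and 1326 and 1220 in those with few genes. Adipoq, the targeted gene, had 1 UMI in the Adipfl/fl library and 0 in the other, so it could not check the genotype labels. The libraries shared 31 barcodes, and doublets were not removed.

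The 8 genes gave 7.21% of all UMIs in the kept Adipfl/fl barcodes and 7.04% in the kept Adipfl/flpVilli-CreT barcodes. In removed barcodes they gave 29.4% and 26.8%, and in barcodes with few genes 56.6% and 54.6%. Over all barcodes together the 8 genes gave 17.7% in Adipfl/fl and 12.7% in Adipfl/flpVilli-CreT, where 31.3% and 46.9% of barcodes were kept. Since the limit of 25% uses these same UMIs, the step from kept to removed is set by the rule. The 8 genes made up 74.95% and 72.6% of the mitochondrial UMIs in kept barcodes and 82.5% and 81.7% in removed ones, the rest being complex I mRNAs and tRNAs.

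**Figure D1:**
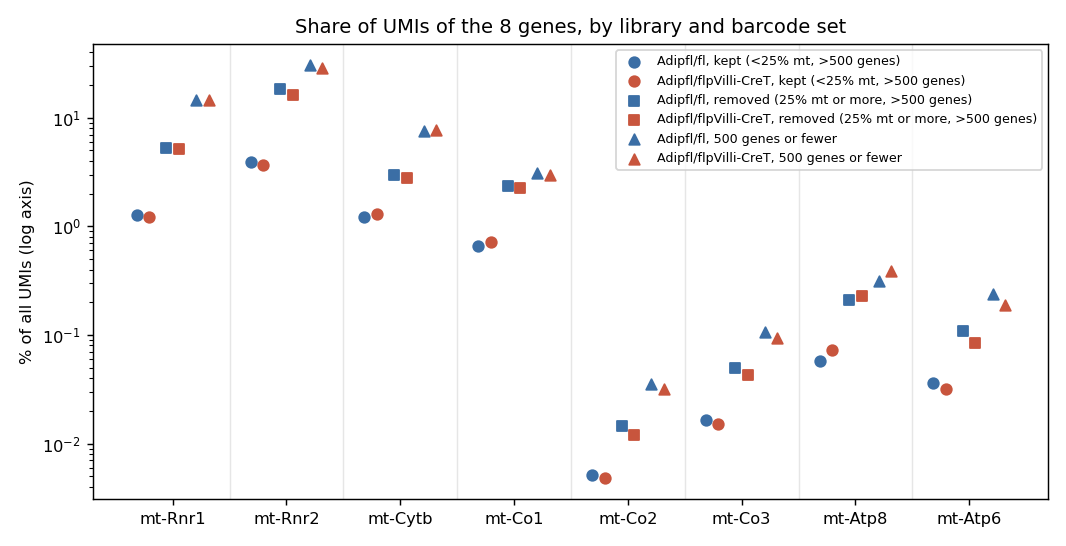
Share of all UMIs (%, log axis) of each of the 8 genes in both libraries, for kept barcodes (circles), removed barcodes (squares) and barcodes with 500 genes or fewer (triangles), from sums of UMIs. mt-Rnr2 is the highest gene in every set, mt-Co2 the lowest, and the colours of the 2 libraries lie close together within each set.

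The rRNAs were the most abundant members. mt-Rnr2 gave 3.93% of all UMIs in kept Adipfl/fl barcodes and 3.67% in kept Adipfl/flpVilli-CreT barcodes. Its share was 18.4% and 16.2% in removed barcodes and 30.8% and 28.5% in barcodes with few genes. mt-Rnr1 gave 1.28% and 1.22% in kept, 5.31% and 5.19% in removed, and 14.5% and 14.7% in few-gene barcodes. mt-Rnr2 exceeded mt-Rnr1 in every set. Per kilobase of gene, mt-Rnr2 stood at 24870 counts per 1000000 UMIs (CPM) and mt-Rnr1 at 13442 in kept Adipfl/fl barcodes.

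The 16S to 12S ratio was not one constant. Over the summed UMIs it was 3.06 and 2.998 in kept barcodes, 3.46 and 3.12 in removed ones, and 2.13 and 1.94 in barcodes with few genes, with Adipfl/fl first and Adipfl/flpVilli-CreT second, as in all pairs of values from here on. Among kept barcodes of the 14 classes introduced below, it went from 1.92 and 2.26 in the crypt-like class to 3.82 and 3.76 in the goblet-like class. In T cell-like barcodes it was 2.24 and 2.22, and in villus tip enterocyte-like ones 3.46 and 3.22. The part of free RNA in these values was not tested.

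Among the mRNAs, mt-Cytb of complex III had the most UMIs, 1.21% and 1.303% of all UMIs in kept barcodes, 2.94% and 2.80% in removed ones, and 7.52% and 7.73% in few-gene barcodes. mt-Co1, the catalytic subunit of complex IV, had 0.663% and 0.717%, then 2.37% and 2.26%, then 3.09% and 2.98%. The other members were far lower. mt-Atp8 had 0.0573% and 0.0724% in kept barcodes, mt-Atp6 0.0363% and 0.0317%, mt-Co3 0.0164% and 0.0150%, and mt-Co2 0.00518% and 0.00480%. In removed barcodes mt-Atp8 had 0.209% and 0.227%, mt-Atp6 0.109% and 0.0851%, mt-Co3 0.0498% and 0.0429%, and mt-Co2 0.0144% and 0.0120%.

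On the scale of CPM per kilobase, mt-Cytb stood at 10581 and 11389 in kept barcodes, mt-Co1 at 4292 and 4642, and mt-Atp8 at 2808 and 3550. UMIs of 3′ ends need not scale with gene length, so this scale raises a short gene such as mt-Atp8 (204 bases) relative to its share of UMIs. The 3 members with copies identical over nearly their whole length were below these, mt-Atp6 at 534 and 466, mt-Co3 at 209 and 191, and mt-Co2 at 75.8 and 70.1. The nuclear copies themselves held few UMIs over all barcodes. Gm10925 had 617 and 703 UMIs beside 30987 and 30571 of mt-Atp6, Gm28661 had 540 and 660 beside 4307 and 4601 of mt-Co2, and Gm28437 had 651 and 758 beside 14061 and 14887 of mt-Co3. How far reads lost to the copies set these low levels was not tested.

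The rRNA to mRNA ratio, the UMIs of mt-Rnr1 and mt-Rnr2 over those of the 13 protein-coding mitochondrial genes, was 1.19 in kept Adipfl/fl barcodes and 1.02 in kept Adipfl/flpVilli-CreT barcodes. It was 1.99 and 1.87 in removed barcodes and 1.84 and 1.70 in those with few genes. The Adipfl/flpVilli-CreT value was thus 0.859 times the Adipfl/fl value in kept barcodes (95% interval 0.856 to 0.862) and 0.943 times in removed ones (0.9402 to 0.9455). Intervals of folds of this ratio, here and later, are approximate (normal approximation on the log scale), and the other later intervals are exact. All of them cover counting error only, not the spread between mice or preparations. Just below the limit, at 24 to 25% mitochondrial UMIs, the ratio was 1.98 and 1.94 (206 and 356 barcodes). Just above it, at 25 to 26%, it was 1.93 and 1.99 (232 and 353 barcodes), so the libraries moved in opposite directions across the limit, by less than the ratio moved along the whole range. Without the 8% of barcodes with the most UMIs the kept ratios were 1.85 and 1.46, and with a limit of 10% they were 0.635 and 0.526.

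Across the range of mitochondrial share the ratio did not move in one direction. It was 0.706 and 0.562 below 5% mitochondrial UMIs, 0.593 and 0.508 at 5 to 10%, and 1.51 and 1.41 at 15 to 20%. It was highest at 25 to 30%, with 2.20 and 1.97, and stood at 1.62 and 1.33 at 50 to 60%. The Adipfl/flpVilli-CreT value was lower in 9 of the 9 bins that held at least 20 barcodes of each library, at 0.796 to 0.939 times the Adipfl/fl value. Within the villus tip-like, mid-villus-like and both unnamed clusters alone, the bin of 5 to 10% went the other way, 0.599 in 47 Adipfl/fl barcodes and 0.747 in 161 Adipfl/flpVilli-CreT barcodes. Over all barcodes above 500 genes, the narrow window of 25 to 26% also went the other way, with 1.93 and 1.99.

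**Figure D2:**
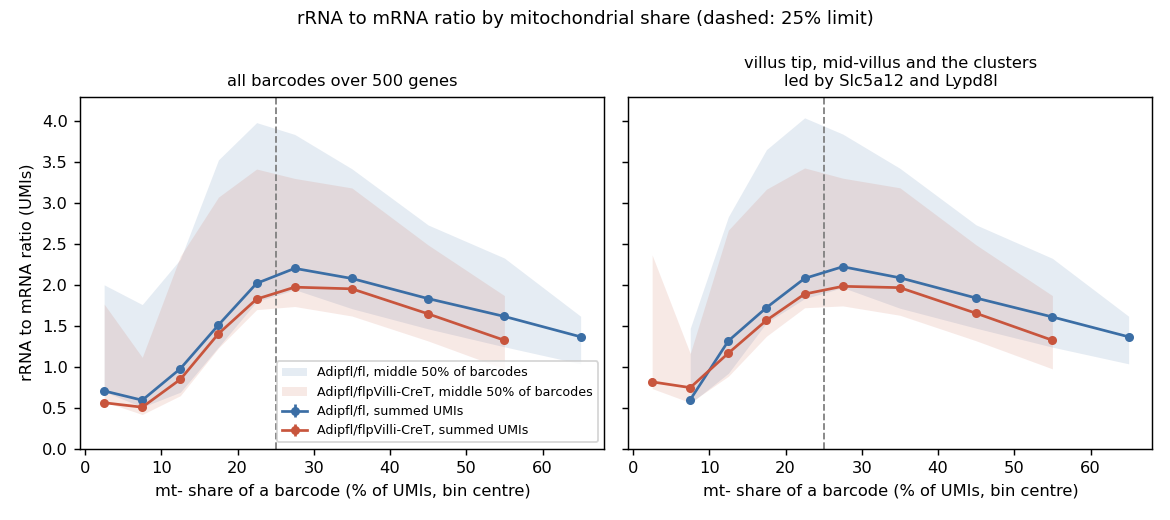
rRNA to mRNA ratio of UMIs (vertical axis) against the mitochondrial share of a barcode in % of UMIs (bin centres), for all barcodes over 500 genes (left) and for the villus tip-like, mid-villus-like and unnamed clusters (right). Points are summed UMIs with 95% counting intervals, shading is the middle 50% of barcodes, and both libraries peak at 25 to 30%, next to the dashed limit.

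Few removed barcodes reached the limit without the rRNAs. Of the 4670 removed Adipfl/fl barcodes, 102 reached 25% on the 13 mRNAs alone, and 4568 were removed only when other mitochondrial UMIs were counted with them. In the Adipfl/flpVilli-CreT library 89 of 4263 reached it on the mRNAs alone. The rRNAs alone reached 25% in 2063 of 4670 and 1171 of 4263 barcodes, so most removed barcodes reached it on neither alone. With the rRNA UMIs taken out of both the mitochondrial and the total count, 461 and 287 barcodes stayed at or above 25%. Over all barcodes above 500 genes, 60.3% and 43.4% were removed.

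To set the members beside cell types, barcodes over 500 genes were clustered after the mitochondrial genes and their nuclear copies had been left out, which gave 19 clusters in 14 classes. Names with "-like" rest on marker genes, and no annotation of the authors was used, so the names may differ from those of the study. The crypt-like class carried stem and cycling markers, and the goblet-like class also carried 7 of 9 Paneth markers. The larger mid-villus-like cluster had 4 of 12 markers and none among its 10 leading genes, so its name is weak. The smaller of the villus bottom-like clusters, led by Fabp1, had 6 villus bottom and 5 mid-villus markers, so its name is weak too. It held 42.3% and 43.5% of the kept villus bottom-like barcodes. Fabp1-led clusters were mixed at resolution 1.2 and with 30 components, and mid-villus-like where kept barcodes were clustered alone. A cluster led by Slc5a12 and one led by Lypd8l had too few markers and stay unnamed. A cluster led by Col1a2, with T cell and fibroblast markers, and one led by Ighv4-1 were mixed.

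Removal differed widely between classes. It took 74.6% and 56.9% of villus tip-like barcodes, 84.0% and 72.1% of the Slc5a12-led cluster, 77.7% and 56.6% of the Lypd8l-led cluster and 50% and 35.2% of mid-villus-like barcodes. It took 0.760% and 0.382% of villus bottom-like barcodes and 1.15% and 0% of crypt-like ones (0 of 280 in the second, with an approximate upper limit of 1.07%). It took 2.17% and 0.969% of goblet-like barcodes, 18.8% and 3.33% of enteroendocrine-like ones and 10.9% and 18.5% of myeloid-like ones (6 of 55 and 5 of 27). In each of the first 4 classes the removed share was lower in the Adipfl/flpVilli-CreT library.

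The rRNA to mRNA ratio in kept barcodes differed between classes. It was lowest in villus bottom-like (0.503 and 0.406) and crypt-like barcodes (0.484 and 0.520), which overlapped each other. Tuft-like barcodes came next at 0.786 and 0.603, then cycling T cell-like ones at 0.987 and 0.906. Mid-villus-like barcodes stood at 1.19 and 1.01, goblet-like at 1.40 and 0.978, T cell-like at 1.49 and 1.57, and myeloid-like at 1.78 and 1.42. Neighbours from the cycling T cell-like to the myeloid-like class overlapped between libraries, so their order is not settled. Villus tip-like barcodes (2.79 and 2.38) and the Slc5a12-led cluster (2.87 and 2.35) stood above all other classes in both libraries and overlapped each other.

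Other readouts differed between the low and the high end of this order. Malat1, a nuclear RNA, gave 5.68% and 5.97% of UMIs in kept villus tip-like barcodes and 1.10% and 1.04% in villus bottom-like ones. mRNAs of cytosolic ribosomal proteins gave 0.352% and 0.376% in villus tip-like and 8.39% and 7.97% in villus bottom-like barcodes, with median UMIs of 3619 and 3448 against 19368 and 19414. Their part in the order was not tested.

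**Figure D3:**
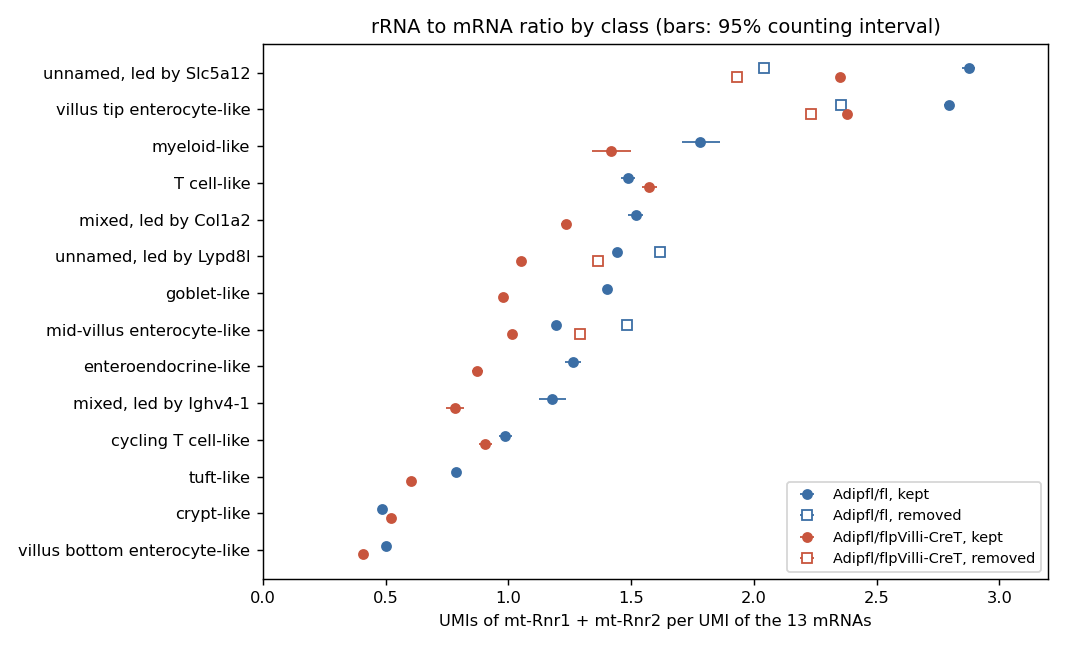
rRNA to mRNA ratio of UMIs (horizontal axis) in 14 classes, ordered by the mean of both libraries, in kept barcodes (filled) and, for the 4 classes with enough removed barcodes, in removed ones (open). Bars are 95% counting intervals, and the villus tip-like class and the Slc5a12-led cluster lie above 2.3 in kept barcodes of both libraries.

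The rise of the ratio from kept to removed barcodes did not hold inside every class. Pooled, removed barcodes had 1.67 and 1.83 times the ratio of kept ones. In villus tip-like barcodes the ratio was lower in removed ones, 2.36 and 2.23 against 2.79 and 2.38, and in the Slc5a12-led cluster it was 2.04 and 1.93 against 2.87 and 2.35. In the Lypd8l-led cluster it was higher, 1.62 and 1.37 against 1.44 and 1.05. At resolution 1.2, however, 2 clusters were led by Lypd8l, with 187 of 870 and 296 of 373 barcodes kept. Removed and kept barcodes were not compared within those. Over the mid-villus-like class the ratio was also higher, 1.48 and 1.29 against 1.19 and 1.01. However, this class joins 2 clusters that sat differently on each side of the limit. The larger one held 67.1% and 61.8% of its kept and 97.1% and 95.9% of its removed barcodes, and within it the ratio was lower in removed barcodes, 1.53 and 1.35 against 1.67 and 1.38. The villus tip-like, mid-villus-like and Slc5a12-led classes together held 89.4% and 92.6% of removed barcodes, against 50.1% and 56.1% of kept ones.

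Between genotypes the kept ratio was lower in Adipfl/flpVilli-CreT in 12 of 14 classes, with a median of 0.811 times the Adipfl/fl value over the 14. It was 0.852 in villus tip-like, 0.851 in mid-villus-like, 0.808 in villus bottom-like and 0.698 in goblet-like barcodes. The exceptions were crypt-like barcodes (1.08, 95% interval 1.06 to 1.09) and T cell-like barcodes (1.06, 1.03 to 1.09), of which the second turned to 0.864 to 0.956 in 3 other clusterings. The crypt-like fold stayed within its interval in the 3 other clusterings that named this class. Kept barcodes clustered alone gave no crypt-like class. There a mixed cluster led by Olfm4 held 82 and 218 barcodes (median 20392 UMIs). One led by Ankle1, with cycling markers, held 4 and 65 (median 5529 UMIs). In removed barcodes it was lower in 4 of 4 classes, at 0.844 to 0.948. Outside the epithelial classes the kept fold was 0.795 in myeloid-like barcodes (49 and 22), 0.918 in cycling T cell-like ones and 1.06 in T cell-like ones. It was 0.814 in the Col1a2-led and 0.665 in the Ighv4-1-led mixed cluster. The cause of these values was not tested. Spearman's rho of the ratio with UMIs per barcode was negative in every class and library measured. It was -0.747 in kept crypt-like barcodes of Adipfl/flpVilli-CreT. Median UMIs of kept barcodes were 19432 and 17091.5 (crypt-like), 5064 and 4591 (T cell-like) and 5582 and 6295 (goblet-like). Villus tip-like barcodes, with a lower ratio, also had fewer UMIs in Adipfl/flpVilli-CreT (3619 and 3448). The part of depth was not tested.

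Within a class, barcodes differed in how far rRNA and mRNA went together. As a description, Spearman's rho between the rRNA and the mRNA share was 0.709 and 0.560 over the 392 and 782 kept villus bottom-like barcodes, and 0.788 and 0.735 over the 232 and 235 T cell-like ones. Over the 621 and 1666 kept villus tip-like barcodes it was -0.0808 and -0.0748, and over the 131 and 225 of the Lypd8l-led cluster -0.560 and -0.226. The barcodes of a class share 1 library, their shares have 1 denominator, and where barcodes lie near it the limit at 25% bounds the sum of both.

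mt-Cytb and mt-Co1 differed in the classes where they were highest, and the top cluster of each is unnamed. As a share of all UMIs in kept barcodes, mt-Cytb was highest in the Lypd8l-led cluster (2.32% and 2.54%) and in mid-villus-like barcodes (1.94% and 1.97%). It was 1.37% and 1.36% in villus bottom-like and 1.10% and 1.22% in villus tip-like barcodes. mt-Co1 was highest in the Slc5a12-led cluster (1.37% and 1.57%) and in villus tip-like barcodes (1.29% and 1.46%). The Lypd8l-led cluster (1.27% and 1.33%) overlapped the villus tip-like class. Mid-villus-like barcodes were close below (1.18% and 1.15%), and villus bottom-like ones had 0.479% and 0.450%. By the mean of both libraries, both genes were lowest in cycling T cell-like barcodes, mt-Cytb at 0.363% and 0.336% and mt-Co1 at 0.158% and 0.124%.

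The ratio of mt-Co1 to mt-Cytb UMIs gives the same contrast without the other genes. It was 1.17 and 1.199 in villus tip-like barcodes and 1.19 and 1.16 in the Slc5a12-led cluster. In the other 12 classes it lay between 0.326 and 0.667, with 0.350 and 0.332 in villus bottom-like, 0.326 and 0.359 in crypt-like, 0.610 and 0.586 in mid-villus-like and 0.542 and 0.563 in T cell-like barcodes. Removed barcodes showed 0.946 and 0.965 in the villus tip-like class and 0.864 and 0.843 in the Slc5a12-led cluster. The libraries differed little here, with 0.548 and 0.550 over all kept barcodes and 0.807 and 0.807 over all removed ones.

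By complex, the 3 complex IV members made up 26.2% and 26.5% of the 13-mRNA UMIs in kept villus tip-like barcodes, 11.02% and 10.2% in villus bottom-like and 10.4% and 10.9% in crypt-like ones. mt-Cytb made up 21.8% and 21.6%, 30.3% and 29.7%, and 30.9% and 29.7% in the same classes. Over all kept barcodes complex IV held 15.6% and 15.4%, complex III 27.6% and 27.2%, complex V 2.13% and 2.17%, and the 7 complex I genes 54.7% and 55.2%. The complex IV sum is nearly mt-Co1 alone, while mt-Atp8 and mt-Atp6 both enter the complex V sum, at 1.31% and 1.51% and at 0.829% and 0.662%.

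The genotype comparison of single members used a fold of 1.5 as the size that counts as a call. In kept barcodes 0 of 8 members passed it in either direction, where 2.70% of 3264 genes tested did (0.643% higher and 2.05% lower). In removed barcodes 0 of 8 passed, where 5.61% of 2318 genes did. The 25% limit is drawn on the members' own UMIs and bounds their summed share on each side. It removed 60.3% of the Adipfl/fl and 43.4% of the Adipfl/flpVilli-CreT barcodes that passed the gene limit. These counts therefore cannot show how far the members differ without the split. Over all barcodes together the 8 genes gave 17.7% of UMIs in Adipfl/fl and 12.7% in Adipfl/flpVilli-CreT. The Adipfl/flpVilli-CreT over Adipfl/fl folds of the share of all UMIs in kept barcodes were 0.954 for mt-Rnr1, 0.933 for mt-Rnr2, 1.08 for mt-Cytb, 1.08 for mt-Co1, 0.926 for mt-Co2, 0.914 for mt-Co3, 1.26 for mt-Atp8 and 0.873 for mt-Atp6. With the 25% limit applied to the 13 mRNAs alone, which kept 7637 and 9729 barcodes, the folds of mt-Cytb, mt-Co1 and mt-Atp8 turned to 0.893, 0.816 and 0.942. The median log2 fold was -0.08 over the members and 0.03 over all genes tested. Fewer cells rich in mitochondrial RNA and less of that RNA per cell cannot be told apart in these sums over all kept barcodes.

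In single classes 3 values passed 1.5-fold, where the share of all genes past that fold in either direction went from 1.09% to 44.2% over the 14 classes. mt-Atp8 stood at 1.53 in the Col1a2-led mixed cluster, where 8.65% of genes were higher past that fold. It stood at 2.00 in the myeloid-like class, where 17.3% were (49 and 22 barcodes). Their counting intervals went from 1.29 to 1.81 and from 1.26 to 3.198. mt-Co3 stood at 1.504 in the cycling T cell-like class, where 3.78% were, from 32 and 44 UMIs and with an interval of 0.932 to 2.45 that includes 1. mt-Co2 was too low to be compared in 9 of the 14 classes.

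The UMIs of the overlapping genes of complex V went in opposite directions. These genes share 43 bases with no tRNA between them, so their UMIs need not come from separate mRNAs. As a share of the 13-mRNA UMIs in kept barcodes, mt-Atp8 went from 1.31% in Adipfl/fl to 1.51% in Adipfl/flpVilli-CreT, a fold of 1.16 (95% interval 1.14 to 1.18). mt-Atp6 went from 0.829% to 0.662%, a fold of 0.799 (0.779 to 0.820). On the same scale mt-Cytb stood at 0.986, mt-Co1 at 0.990, mt-Co2 at 0.848 and mt-Co3 at 0.837. mt-Atp8 was thus the one member higher than 1 on this scale, and the 3 members with identical nuclear copies were the lowest. Complex I genes with copies, which also enter the 13-mRNA sum, went both ways. mt-Nd3, with 1 mismatch over 345 bases to Gm28438, went from 1.26% to 2.93%. mt-Nd4l, identical over 294 bases to Gm10222, went from 0.0575% to 0.0440%. mt-Nd4, identical over 876 bases to Gm28439, hardly moved, from 18.16% to 17.99%. The part of the copies was not tested.

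The opposite directions of mt-Atp8 and mt-Atp6 held across most classes. As a share of the 13-mRNA UMIs, mt-Atp6 was lower in 14 of 14 kept classes, at 0.591 to 0.952 and beyond the counting interval in 8. As a share of all UMIs it was lower in 11 of 14 and beyond the interval in 6, and mt-Atp8 was higher in 13 of 14. On the 13-mRNA scale mt-Atp8 was higher in 11 of 14, beyond the interval in 8. It stood at 0.989 in goblet-like, 0.964 in cycling T cell-like and 0.916 in enteroendocrine-like barcodes. The ratio of mt-Atp6 to mt-Atp8 UMIs was 0.634 and 0.438 in kept barcodes, 0.522 and 0.374 in removed ones and 0.755 and 0.485 in those with few genes. T cell-like barcodes, which the villin Cre does not target, had 0.654 and 0.393. A difference between the preparations cannot be told apart from one between genotypes.

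**Figure D4:**
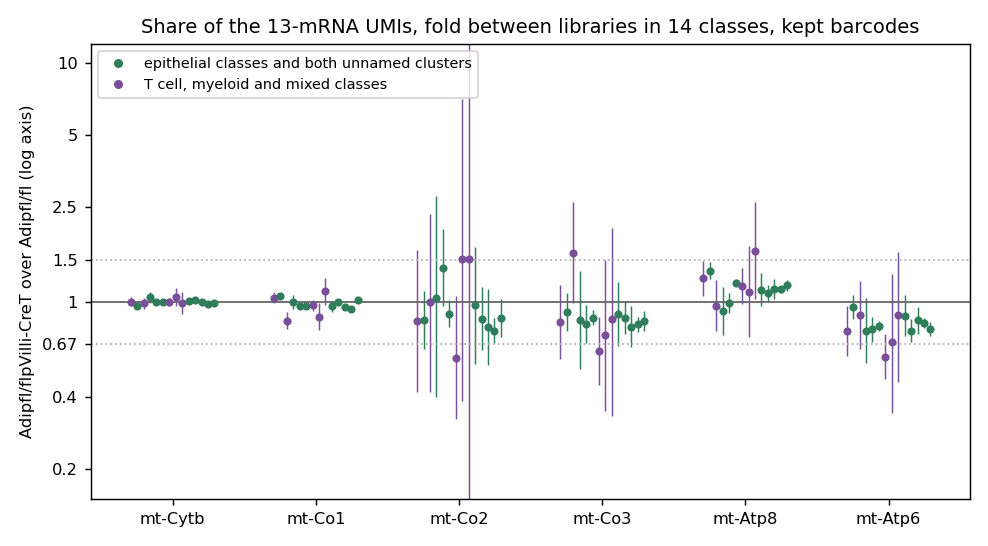
Fold of each mRNA member's share of the 13-mRNA UMIs between the libraries (Adipfl/flpVilli-CreT over Adipfl/fl, log axis) in 14 classes of kept barcodes, with 95% counting intervals (for mt-Co2, with few UMIs, 1 interval runs past the axis) and dotted lines at 1.5-fold. mt-Cytb stays between 0.961 and 1.05, mt-Atp8 lies above 1 in 11 classes and mt-Atp6 below 1 in all 14.

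The nuclear genes that supply the other subunits of the same complexes were counted in kept villus tip-like, mid-villus-like and villus bottom-like barcodes together (1596 and 3432). There 0 of 9 complex III genes, 0 of 11 complex IV genes and 0 of the 13 of 15 complex V genes that could be tested passed 1.5-fold in either direction, where 0.882% of 3062 genes were higher and 0.359% lower. Their median log2 folds were 0.00, -0.01 and -0.05. The furthest were Atp5l (1.47), a subunit of the ATP synthase membrane part, and Cox6a1 (0.855), of complex IV. Of 31 listed genes for mitochondrial RNA synthesis, processing and decay found in the gene rows, 1 was high enough to test. It was Slirp, which stabilises mitochondrial mRNAs, at 1.12.

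From the villus bottom-like to the villus tip-like class the nuclear subunits were lower where the members were higher, while the crypt-like class was below the villus bottom-like one in both. The 11 nuclear complex IV genes summed to 19221 and 19428 UMIs per 1000000 non-mitochondrial UMIs in villus bottom-like barcodes, 14692 and 14633 in crypt-like, 9539 and 9925 in mid-villus-like and 2588 and 2774 in villus tip-like kept barcodes. The 8 members gave 4.22% and 3.75% of all UMIs in the first of these, 2.74% and 3.11% in the second, 11.98% and 10.8% in the third and 16.6% and 16.3% in the last. Removed villus tip-like barcodes had 30.5% and 27.5% from the members and 2484 and 2764 from the nuclear genes. The nuclear subunits of complexes III and V had the same highest and lowest classes among these 4.

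**Figure D5:**
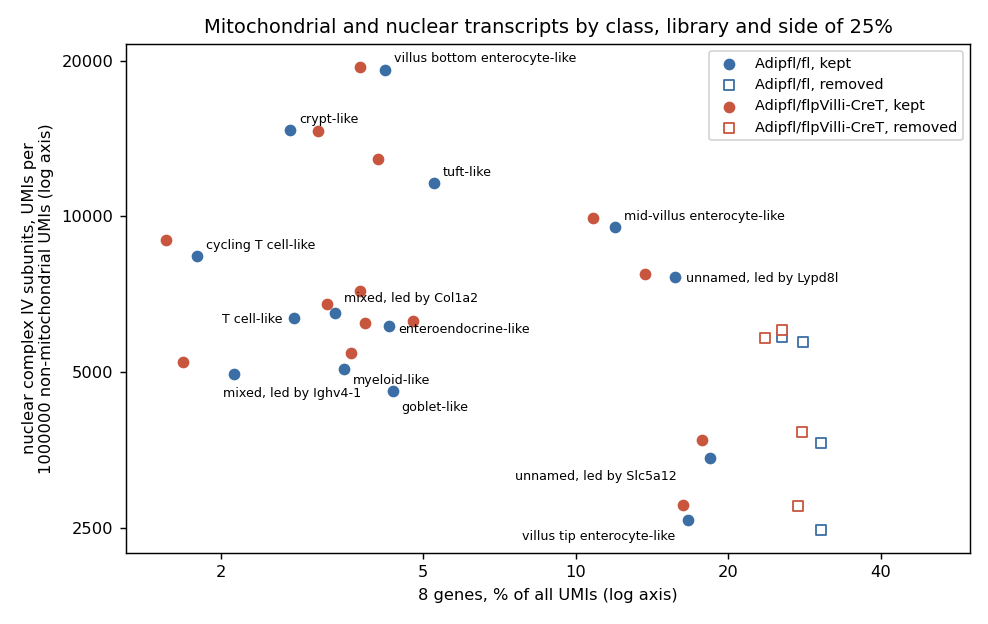
Summed nuclear complex IV subunits (UMIs per 1000000 non-mitochondrial UMIs, log axis) against the share of the 8 members in all UMIs (%, log axis), 1 point per class, library and side of the 25% limit. The villus tip-like class (2588 and 2774 in kept barcodes) and the Slc5a12-led cluster lie at the lower right, and the villus bottom-like and crypt-like classes at the upper left.

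Among 3524 other genes, those whose pattern over the 36 points (class, library and side of the limit) was most like the members' summed share were Pcyt2 (Pearson's r 0.977, log2 scale), an enzyme of phosphatidylethanolamine synthesis, and Lars2 (0.973), the mitochondrial leucyl-tRNA synthetase. Cdk11b (0.963), Sbno2 (0.962) and Clcn2 (0.960), a chloride channel, came next. The most opposite were Dad1 (-0.956), Tmem258 (-0.945) and Sec61b (-0.941), of protein glycosylation and entry at the endoplasmic reticulum, then Eif1 (-0.939) and Rpl10 (-0.936), of translation. The points share 2 libraries, and their split into kept and removed uses the members' own UMIs. Lars2 went from 203 to 6432 UMIs per 1000000 non-mitochondrial UMIs over the points. Whether all of the UMIs counted for Lars2 come from its mRNA was not tested.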

How the data were processed

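The authors deposited raw UMI counts per gene and barcode, made from 10x Genomics 3′ (V3) libraries with Cell Ranger (7.1.0 per the file headers) against mm10. The alignment settings for reads with several matches are not given in the sources used here. Here counts were summed over barcodes per library, class and side of the limit. Barcodes over 500 genes were clustered in Seurat 5.3.0 (R 4.3.3) with 2000 variable genes, 20 components and resolution 0.8, after the mitochondrial genes and their nuclear copies were left out. A class name needed at least 3 markers and 50% of its marker list or, where no list reached 50%, at least 3 markers of 1 list alone. Copies were searched with BLAST 2.17.0 (90% identity over 100 bases or more) in GENCODE M21 transcripts of GRCm38 (the same build as mm10), from which sequences were read. Sums used Python 3.11.15, with exact Poisson and Clopper-Pearson 95% intervals from scipy 1.17.1. UMIs that PCR or errors split are not independent molecules. A gene was compared at 50 CPM or more in the higher library and 20 or more UMIs in all. With 1 library per genotype no p-value was computed, and a call means 1.5-fold. All 8 members are named. The members, gene lists and comparisons were chosen with earlier results of these data known.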

Additional observations from a re-analysis of the deposited data

Results flagged for a closer look

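In kept barcodes the rRNA to mRNA ratio of the Adipfl/flpVilli-CreT library was 1.06 times that of the Adipfl/fl library in T cell-like and 1.08 times in crypt-like barcodes, while it was below 1 in the 12 other classes. The direction differed between classes, and this difference was not tested. UMIs per barcode also differed between the libraries in these classes, as given above.

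Removed over kept barcodes, the ratio went down in some classes and up in others. In villus tip-like barcodes removed over kept was 0.844 in Adipfl/fl and 0.939 in Adipfl/flpVilli-CreT, and in the Slc5a12-led cluster 0.710 and 0.821. In the Lypd8l-led cluster, not divided here as at resolution 1.2, it was 1.12 and 1.298. Over the mid-villus-like class it was 1.24 and 1.27, but within the larger of its 2 clusters, which held 97.1% and 95.9% of its removed barcodes, the ratio was lower in removed barcodes (1.53 and 1.35) than in kept ones (1.67 and 1.38). These differences between classes were not tested, and the limit itself is drawn on the same UMIs.

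Mitochondrial tRNA genes, which no comparison used, had 7439 UMIs in Adipfl/fl and 12695 in Adipfl/flpVilli-CreT. Per 10000 mRNA UMIs this was 22.9 and 29.0 in kept barcodes and 24.6 and 34.8 in removed ones.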

How the results depend on the processing

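With 1 library per genotype, everything above rests on counting error within 2 libraries, and depth limits mt-Co2 most. No paired analysis was possible because no replicates exist. 0 members passed 1.5-fold under the 9 alternatives run, of which the share of the 13 mRNAs covers 6 of the 8. All 9 kept a mitochondrial limit, and none pooled all barcodes, so whether a member passes without such a limit was not tested. Over the settings run, the lowest member folds were 0.686 for mt-Rnr2 and 0.692 for mt-Atp6, and the highest was 1.35 for mt-Atp8. Values follow as rRNA to mRNA ratio of Adipfl/fl and of Adipfl/flpVilli-CreT and their fold, first in kept and then in removed barcodes. With a limit of 10% they were 0.635, 0.526 and 0.828, then 1.87, 1.64 and 0.880. With the share taken from the 13 mRNAs alone (7637 and 9729 barcodes kept) they were 1.69, 1.34 and 0.797, then 0.923, 0.774 and 0.839. With more than 200 genes the ratios were 1.19 and 1.03, then 2.02 and 1.90. With more than 1000 genes they were 1.12, 0.942 and 0.845, then 1.63, 1.49 and 0.915. As medians over barcodes they were 1.79, 1.67 and 0.931, then 2.33, 2.23 and 0.958. Without the 8% of barcodes with the most UMIs they were 1.85, 1.46 and 0.790, then 1.99 (Adipfl/fl) and 0.9397 (fold). In epithelial classes alone the kept ratios were 1.18 and 1.02. An mRNA total without the 5 genes with near-identical copies, chosen after seeing the data, gave 1.22, 1.06 and 0.872, then 2.04, 1.95 and 0.956. The fold stayed below 1 under all of these, and adding UMIs of nuclear copies or leaving out shared barcodes moved no ratio beyond its interval. Of 70 member folds in kept barcodes 64 kept their direction. mt-Cytb (0.986) and mt-Co1 (0.990) turned as a share of the 13 mRNAs, mt-Co3 (1.01) with a limit of 10%, and mt-Cytb (0.893), mt-Co1 (0.816) and mt-Atp8 (0.942) where the limit used the 13 mRNAs alone. Of 38 class folds 34 kept their direction. T cell-like barcodes turned to 0.956 at resolution 1.2, 0.922 with 30 components and 0.864 where kept barcodes were clustered alone, and cycling T cell-like barcodes to 1.04 at resolution 0.4. The causes were not tested.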
